A study of Mus musculus with 13 samples.

Results

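Late-stage 4T1 tumours were compared with early-stage 4T1 tumours on 4 Illumina bead arrays, 2 per stage. A gene was kept when both late arrays lay on the same side of both early arrays. Of 9637 genes detected on at least 1 array, 4996 were kept (51.8%), 2232 with both late arrays above and 2764 with both below the early pair. The annotated probes of this platform cover 16593 genes, and the series holds 13 arrays in all, the other 9 being on a second platform with no stage label.

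The tumours were orthotopic, that is, cells of the mouse mammary carcinoma line 4T1 grew in the mammary tissue of the host. Each stage had 1 array of a tumour with pericyte ablation (TK early, TK late) and 1 of its control (control early, control late), so that ablation was balanced between the stages. PDGFRb-TK mice carry a viral thymidine kinase under the Pdgfrb promoter, which is active in pericytes and some fibroblasts, and ganciclovir (GCV) is toxic to dividing cells with that kinase. GCV was injected in every sample, controls included. The column names call the control arrays WT, whereas the genotype field gives PDGFRb-TK for all 4 samples, and which of these the controls were cannot be settled from the labels. The labels do not give the day of either stage, the age of the mice, or whether RNA of several animals was pooled.

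Because each combination of stage and host was measured on 1 array, a stage has 2 values per gene, and these 2 come from different hosts. An exact two-sided permutation of 2 against 2 cannot go below 0.333, so single genes were tested with limma over all genes, where the p-value rests on the spread between these 4 samples. All levels are normalised log2 signals and all differences are late mean minus early mean on that scale. Where 2 values are given for a stage, the ablated tumour comes first and its control second. The probe signals had medians of 74.5 (TK early), 73.6 (control early), 82 (TK late) and 97.9 (control late). Their highest values were 46046.8, 44002.3, 31521.8 and 36305.3 in that order. Of the 3 arrays with a usable detection column, TK early detected 48.9% of probes, control early 47.2% and TK late 42.6%. These features of the arrays went with the stage, and the design cannot tell them apart from it. The arrays correlated across genes at 0.967 to 0.984. Single arrays stood apart in several gene lists. TK early was high for skeletal muscle genes (list mean 8.99, against 6.64 to 7.80) and for B and plasma cell genes (6.92, against 6.11 to 6.27). TK late was low for fibroblast and matrix genes (8.10, against 8.89 to 9.22) and for endothelial genes (7.26, against 7.82 to 7.98). The label of carcinoma was met by the epithelial keratins, with Krt18 at 12.21 (TK early), 12.36 (control early), 12.73 (TK late) and 12.63 (control late), and Krt8 between 12.75 and 13.12.

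4T1 tumours grow fast, spread spontaneously to the lung and draw in many granulocytic myeloid cells. Their stroma is built of fibroblasts that lay down collagen, endothelial cells lining the vessels, and pericytes that wrap those vessels and respond to PDGF-B through Pdgfrb. T and natural killer (NK) cells enter along chemokine gradients such as that of Cxcl9, which binds the receptor Cxcr3. In a bulk array, fewer cells of a type and less RNA per cell cannot be told apart.

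In limma's test of the stage, 60 genes had an adjusted p below 0.05 (0.623% of those tested), 41 higher (0.425%) and 19 lower (0.197%) in late tumours. The sizes ran from 0.87 to 2.10. At an unadjusted p below 0.05 there were 1858 genes, 852 higher and 1006 lower. Without TK late, or without control late, 0 genes passed (962 and 1525 at an unadjusted p below 0.05), nor did any in the authors' processed values (2010 at an unadjusted p below 0.05). With ablation status as a block, 757 passed (7.86%), the 60 genes among them, 340 higher (3.53%) and 417 lower (4.33%). That fit leaves 1 residual degree of freedom per gene, which is the disagreement between the hosts. The moderation in limma draws this spread toward that of all genes, so a gene whose hosts disagree can still pass. Thbs2 passed with differences of -2.73 in ablated and -0.34 in control tumours, and Isg15 with 1.29 and 0.12. Where a gene's adjusted p is printed below and the fit with the block turns it into a call, its value is given as that with the block.

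The gene with the smallest p was Ulk4, a member of the unc-51-like kinase family that lacks normal kinase activity. It read 6.45 on TK early and 6.71 on control early, against 8.76 on TK late and 8.60 on control late (difference 2.10, SE 0.16, limma adjusted p = 0.00926). The early arrays lay close together and well below the late ones. Ddx6, an RNA helicase of processing bodies, was at 7.11 and 7.03 early and at 9.16 (TK) and 8.68 (control) late (difference 1.85, SE 0.19, limma adjusted p = 0.0175). Its other detected probes differed by 0.57 on average, in the same direction. Pabpc1, which binds the poly(A) tail of messenger RNA, rose from 10.61 and 10.21 to 11.82 and 12.12 (difference 1.55, SE 0.19, limma adjusted p = 0.0181). The other detected probes of Pabpc1 differed by 0.43 on average.

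Ezh2, the histone methyltransferase of Polycomb repressive complex 2, was at 6.83 and 6.62 on the early arrays and 8.22 and 8.10 on the late ones (difference 1.43, SE 0.16, limma adjusted p = 0.0175). Dek, a chromatin-binding protein, rose by 1.51, and its other probe by 1.07. The homeodomain factor gene Zfhx3 rose by 1.48 and the calcineurin-regulated Nfatc3 by 1.56. H3c14, which encodes a histone H3, rose by 1.31; histone H3 genes are nearly identical, so its probe may read several of them. Klf6, a zinc-finger transcription factor, had a difference of 1.42 that just missed the threshold (limma adjusted p = 0.0510, and 4.00e-05 with the block).

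Dag1 encodes dystroglycan, a laminin receptor, and stood at 8.65 and 8.38 early and at 10.40 and 10.07 late (difference 1.72, SE 0.18, limma adjusted p = 0.0175), with its other probe 1.40 higher. Irs2, an adaptor of the insulin receptor, rose by 1.36 and Tab2, an adaptor of the kinase TAK1, by 1.45. Zc3h13, part of the RNA methyltransferase complex that writes N6-methyladenosine, rose by 1.32. Map1b, a microtubule-associated protein, rose by 1.49 on the probe used, while the mean over its other detected probes was -0.02, so its change depends on the probe. In each of these genes both late arrays lay above both early arrays by more than the arrays of a stage differed. They were picked by small p, which favours such a separation.

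**Figure D1:**
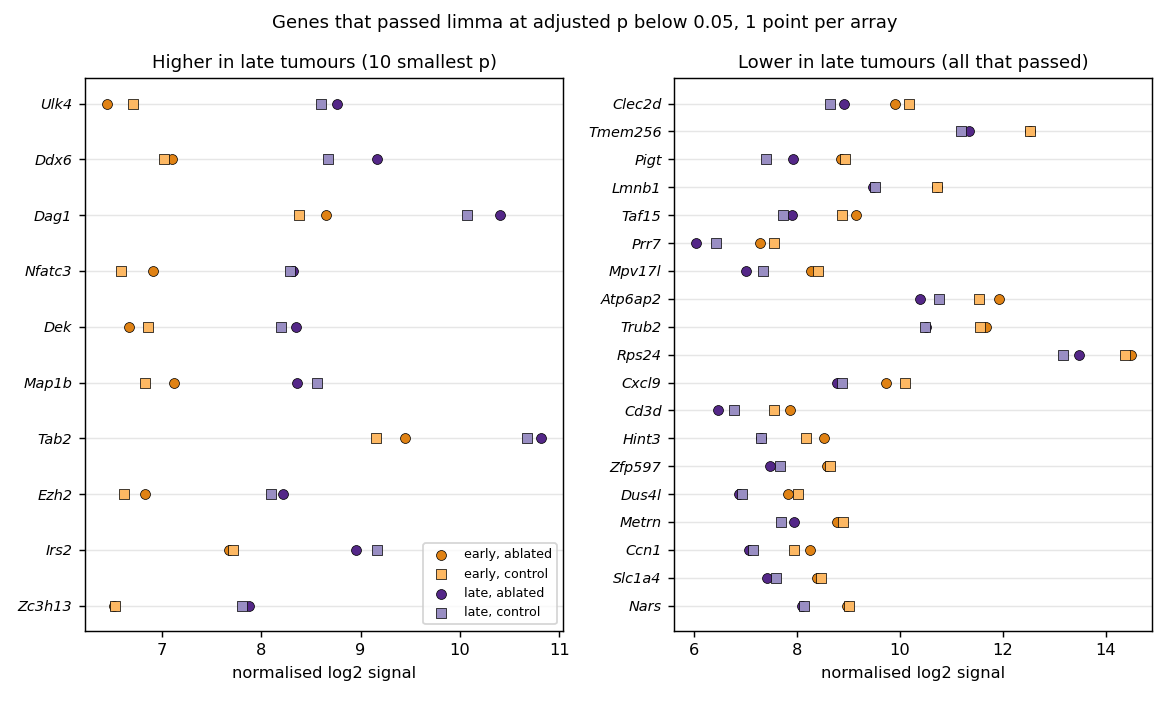
Normalised log2 signal on the 4 arrays for the 10 genes with the smallest p among those higher in late tumours (left) and for all 19 genes lower (right), by limma at adjusted p below 0.05. Each point is 1 array, circles for ablated and squares for control hosts. In every gene shown the late points (purple) are separated from the early points (orange), as for Ulk4 at 8.60 and 8.76 against 6.45 and 6.71. The genes were picked by p, which favours such a separation.

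Of the 19 genes that fell, the immune genes were Cxcl9, Cd3d and Clec2d. Cxcl9, the interferon-induced chemokine that draws T cells, was at 9.74 (TK) and 10.11 (control) early and at 8.78 and 8.88 late (difference -1.09, SE 0.17, limma adjusted p = 0.0449). Cd3d, a chain of the T cell receptor complex, went from 7.87 and 7.56 to 6.47 and 6.77 (difference -1.09, SE 0.18, limma adjusted p = 0.0494). Clec2d, a lectin-like ligand of NK cell receptors, went from 9.91 and 10.18 to 8.92 and 8.64 (difference -1.27, SE 0.17, limma adjusted p = 0.0292).

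The other genes that fell had varied roles. Tmem256, a small membrane protein, went from 12.53 on both early arrays to 11.35 and 11.19 (difference -1.27, SE 0.15, limma adjusted p = 0.0181). Rps24, a protein of the small ribosomal subunit, went from 14.49 and 14.38 to 13.49 and 13.18 (difference -1.10, limma adjusted p = 0.0391). The RNA-binding protein gene Taf15 fell by 1.20, the gene of the GPI transamidase subunit Pigt by 1.23 and that of the neutral amino acid transporter Slc1a4 by 0.92. Nars, the asparaginyl-tRNA synthetase gene, fell by 0.87. The matricellular Ccn1 fell by 0.99 on the probe used, with a mean of -0.09 over its other detected probes. The remaining genes were Prr7 and, with differences of -1.17 to -1.01, Mpv17l, Zfp597, Dus4l, Hint3 and Metrn. Prr7 was not well above background on the late arrays and was at least 1.88-fold lower there.

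Of the 19, 7 had other detected probes. In 4 these had the same sign but were nearer 0: Rps24 (-0.48), Ccn1 (-0.09), Hint3 (-0.18) and Mpv17l (-0.11). In the other 3 they had the opposite sign. The nuclear lamina gene Lmnb1 fell by 1.22 on the probe used and its other probe differed by 0.09. Trub2, a pseudouridine synthase, fell by 1.11 against 0.28 on its other probe. Atp6ap2, an accessory protein of the vacuolar ATPase, fell by 1.15 against a mean of 0.07 over its others. Over both directions, 18 of the 60 genes had other detected probes, and in 12 of the 18 their mean had the same sign.

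The 9 arrays of the other platform, 3 groups of 3 labelled replicates of 4T1 tumours, give a spread for the same genes that the stage comparison did not use. Their median residual SD was 0.256, against a median moderated SD of 0.163 on the 4 arrays. Of the 8854 genes shared, 1244 (14.1%) differed between stages by more than 2 of those SDs. Of the 60 genes 59 were measured there and 57 passed that mark, but they had been picked for large differences, so the 2 shares are not compared. The exceptions were Cd3d, at 1.18 SDs, and Cxcl9, at 0.82 SDs, both of which varied widely between replicates of the 9 arrays (SD 0.923 and 1.33). Tested against that spread, 1 gene passed, Ddx6 (limma adjusted p = 0.0137). Genes given below with a p from the block ranged widely on this measure. In those SDs, Cd163 differed by 0.86, Ccl8 by 0.87, Cd3g by 0.85, Cx3cr1 by 0.79, H2-DMb1 by 0.68 and Krt10 by 0.41. Cd8b1 differed by 3.89 on the probe used, Adamts4 by 2.37 and Trem3 by 2.32.

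The stage difference was set side by side in both hosts. Across genes it had an SD of 0.427 in ablated and 0.355 in control tumours. Ablated minus control differed by 0.347 (SD) on the early and 0.301 on the late arrays, so 2 arrays of a stage differed nearly as much as 2 arrays of a host. The late minus early values of the hosts had the same sign in 6393 of 9637 genes (66.3%) and correlated at 0.36 across genes, which are not independent replicates.

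**Figure D2:**
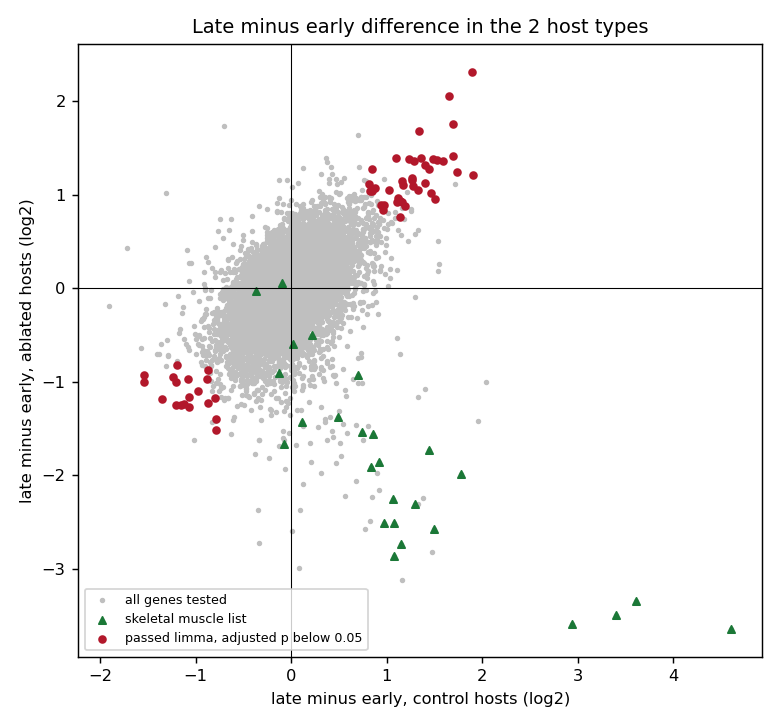
Late minus early difference (log2) in control hosts (horizontal axis) and ablated hosts (vertical axis), 1 point per gene and 1 array per stage and host. The 60 genes that passed limma (red) lie in the upper right or lower left, a place that their selection by p favours. Most of the skeletal muscle list (green triangles) lies at the lower right, higher in late control and lower in late ablated tumours.

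The kept genes as a whole had small differences. Their median size was 0.32 for those higher and 0.31 for those lower, with 42 and 31 genes at 1 or more. The distance between the nearest late and early arrays was over 0.2 in 863 and 1033 genes, and over 0.5 in 184 and 145. Golga1 was kept with a distance of 0.000126 and Cant1 fell just outside with 0. Of the kept genes 44.7% were higher, which was 33.2% with 75th percentile scaling and 31.0% in the authors' processed values. The median over all genes tested was -0.03, and -0.09 and -0.17 under those scalings. The split was nearer even with other filters. With detection on all 3 valid arrays 49.1% of the kept genes were higher and the median was -0.01. Without a filter the values were 48.6% and -0.01. As background for what follows, 23.2% of all genes tested were kept as higher and 28.7% as lower.

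Gene lists of cell types and pathways were described by these counts, with no test of a list, and 24 of 31 medians lay below 0. T and NK cell genes were mainly lower in late tumours. Of 19 members tested 10 were kept as lower and 1, Icos, as higher, with a list median of -0.27 that was -0.26 in ablated and -0.24 in control tumours. The detection filter could use both early arrays but, of the late arrays, only TK late. With detection required on all 3 valid arrays, 6 members were kept as lower and 1 as higher, and the list median was -0.59. Over all 7344 genes then tested, 1898 were kept as lower and 1834 as higher, and the median was -0.01. Besides Cd3d, its receptor partner Cd3g stood at 7.62 and 7.66 early and at 6.66 and 6.90 late (difference -0.87, limma adjusted p = 0.0512, and 0.00293 with the block). Cd8b1, the beta chain of the CD8 co-receptor, stood at 8.24 and 8.57 early and 7.52 and 7.29 late (-1.002, limma adjusted p = 0.0512, and 0.00139 with the block). The other detected probe of Cd8b1 differed by -0.25. Klrd1, the CD94 receptor of NK cells, stood at 7.67 and 8.04 early and 6.89 and 6.84 late (-0.99, limma adjusted p = 0.0512, and 0.00128 with the block). These 3 were named from the kept members, so by the rule their stages could not overlap. With Cd3d, Cd3e, Cd27 and Nkg7 they are the 7 members that passed as lower with the block, beside 4.33% of all genes. Other lists had such calls too: 6 neutrophil, 6 chemokine and cytokine, and 5 endothelial genes passed as lower with the block.

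Not every gene of the list was lower. Prf1, the pore-forming perforin, was at 10.11 on TK early and 10.23 on TK late, and at 8.29 and 8.84 on the controls, so that it followed the host and not the stage. Of the 19 genes 7 were not well above background on the late arrays, among them the regulatory T cell gene Foxp3, at least 1.02-fold lower, and the co-stimulator Cd28. Icos, a co-stimulator of activated T cells, had a difference of 0.41. The list's median lay below that of all genes under every processing alternative and with any array left out, by 0.13 to 0.93.

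**Figure D3:**
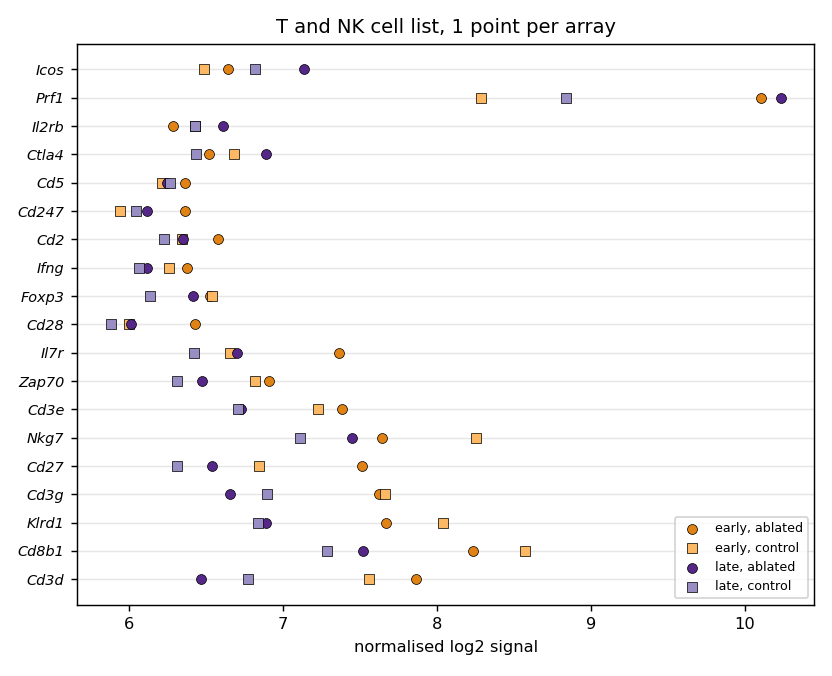
Normalised log2 signal of the 19 tested T and NK cell genes on the 4 arrays (circles ablated, squares control hosts), ordered by late minus early difference. From Il7r downward the late points (purple) lie mostly to the left of the early points (orange), with Cd3d, at -1.09, at the bottom.

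B cell and lymphatic markers were high on 1 early array. The 4 B and plasma cell genes tested had a mean of 6.92 on TK early and 6.11 to 6.27 on the other arrays, and Ccl21a, a chemokine of lymphatic endothelium and lymph nodes, stood at 8.63 on TK early and at 6.30, 6.26 and 5.95 elsewhere. The T and NK list had means of 7.18 (TK early), 6.99 (control early), 6.82 (TK late) and 6.62 (control late), and without TK early its median was -0.26. What the high B cell and lymphatic values on TK early mean for the T and NK list was not tested.

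Of the genes of MHC class II antigen presentation and of dendritic cells, 11 of 12 tested had a negative difference. Over all genes tested this held for 5302 of 9637. Of the 12, 5 were kept as lower and 0 as higher, with a median of -0.33 (-0.40 in ablated and -0.26 in control tumours). H2-DMb1, which loads peptide onto class II molecules, stood at 10.48 and 10.80 early and at 9.76 and 10.18 late (difference -0.67, limma adjusted p = 0.135, and 0.0162 with the block). Batf3, a transcription factor of cross-presenting dendritic cells, had a difference of -0.38 and the co-stimulator Cd86 one of -0.37. Cd74, the invariant chain, differed by 0.21 and its arrays overlapped. Class I processing genes were split, with 4 of 13 higher and 3 lower.

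Of 23 neutrophil and granulocyte genes 18 had a negative difference, beside 5302 of all 9637 genes. Of the 23, 5 were kept as lower (21.7%, beside 28.7% of all genes) and 2 as higher (8.7%, beside 23.2%). With the block 6 passed as lower, beside 4.33% of all genes, and 0 as higher. The list median was -0.33 (-0.41 in ablated and -0.33 in control tumours). It was 0.00 without control late, -0.04 without TK early and -0.72 without TK late. Trem3, a myeloid activating receptor, stood at 7.56 and 7.43 early and 6.39 and 6.74 late (-0.93, limma adjusted p = 0.0512, and 0.00208 with the block). The granulocyte proteins S100a8 and S100a9 were higher on the ablated than on the control array at both stages, with S100a9 at 11.79 and 11.02 against 9.94 and 9.04. Of 23 macrophage and monocyte genes 3 were kept as higher and 1 as lower (median 0.04). Cx3cr1, the fractalkine receptor, stood at 7.90 and 8.27 early and 8.87 and 8.85 late (0.78, limma adjusted p = 0.0804, and 0.00728 with the block). The scavenger receptor Cd163 stood at 8.60 and 7.79 early and 7.04 and 7.17 late (-1.09, limma adjusted p = 0.0831, and 0.00139 with the block).

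Among 27 chemokines and inflammatory cytokines 7 were kept as lower and 2 as higher (median -0.21). Ccl8, a ligand that draws monocytes, stood at 9.68 and 8.58 early and 8.26 and 7.78 late (-1.11, limma adjusted p = 0.140, and 0.000621 with the block). Il11, a cytokine of the interleukin-6 family, stood at 7.65 and 7.42 early and 6.69 and 6.80 late (-0.79, limma adjusted p = 0.0626, and 0.00634 with the block). Ccl4 differed by -0.19 in ablated and -1.90 in control tumours, so its value rests on control late. Without that array the list median was 0.09.

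Interferon-response genes were kept as higher about as often as all genes. Of 25 tested 6 were kept as higher, 24% beside 23.2% of all genes. Another 2, Cxcl9 and Isg20, were kept as lower, 8% beside 28.7% of all genes. The list median was 0.16, with 0.30 in ablated and -0.02 in control tumours, and -0.03 without TK late. Isg15, a ubiquitin-like protein induced by type I interferon, stood at 8.998 and 9.17 early and at 10.28 (TK) and 9.29 (control) late (0.70, limma adjusted p = 0.238, and 0.0386 with the block). Oasl2, of the oligoadenylate synthetase family, differed by 0.45 and Irf9, the DNA-binding part of the factor ISGF3, by 0.35. The other detected probe differed by 0.62 for Oasl2 and by 0.07 for Irf9. With 75th percentile scaling the median was 0.00 and 3 members were kept as higher.

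Promoters of 3 of these genes are shown because the list held genes of both directions. They are the 250 bases before the transcription start, from RefSeq on GRCm38.p6, 5′ to 3′ on the gene's strand, with each match to the interferon-stimulated response element in capitals. The letters searched were GAAA, then any 2 bases, then GAAA, on both strands with overlaps allowed. The windows are chr4:156200819-156201068 (minus strand) for Isg15, chr10:128270248-128270497 (plus strand) for Stat2, a partner of Irf9 whose difference was 0.21, and chr5:92328080-92328329 (minus strand) for Cxcl9.
Isg15: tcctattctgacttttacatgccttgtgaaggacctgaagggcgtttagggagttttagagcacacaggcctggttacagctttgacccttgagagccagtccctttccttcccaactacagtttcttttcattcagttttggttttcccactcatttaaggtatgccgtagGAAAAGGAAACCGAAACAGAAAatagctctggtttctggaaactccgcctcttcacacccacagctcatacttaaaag
Stat2: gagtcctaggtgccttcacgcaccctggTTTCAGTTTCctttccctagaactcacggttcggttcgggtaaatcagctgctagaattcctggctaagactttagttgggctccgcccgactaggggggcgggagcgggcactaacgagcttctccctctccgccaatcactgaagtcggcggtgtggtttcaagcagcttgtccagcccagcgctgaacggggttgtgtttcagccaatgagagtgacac
Cxcl9: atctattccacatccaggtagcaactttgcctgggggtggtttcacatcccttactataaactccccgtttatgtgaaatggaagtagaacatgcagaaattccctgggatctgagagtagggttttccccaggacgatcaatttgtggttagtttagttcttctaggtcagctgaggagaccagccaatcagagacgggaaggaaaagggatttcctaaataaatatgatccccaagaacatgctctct
Isg15 held 3 overlapping matches, the nearest beginning 66 bases before the start, Stat2 held 1, and the Cxcl9 window held none of these letters. Of the 25 list genes 21 were matched to a promoter. Taking for each gene the window with most matches, 10 of the 21 held the motif, against 2.98% of all 32851 windows. The motif was in 2 of 6 genes kept as higher, 0 of 2 kept as lower and 8 of 13 not kept. Isg15 and Stat2, shown above, are the 2 kept as higher that held it. Ddx58, Irf9, Oasl1 and Oasl2, also kept as higher, did not.

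Endothelial genes were lower on TK late above all. Of 22 tested 9 were kept as lower and 0 as higher, with a median of -0.33, which was -0.47 in ablated and -0.08 in control tumours and -0.07 without TK late. Egfl7, secreted by endothelial cells, stood at 10.23 (TK) and 10.45 (control) early and at 9.07 (TK) and 10.004 (control) late (-0.80, limma adjusted p = 0.181, and 0.00908 with the block). The other detected probes of Egfl7 differed by -0.16 on average. Mmrn2, an endothelial matrix protein, was lower in both hosts, at 8.06 and 7.99 early and 7.23 and 7.43 late (-0.70, limma adjusted p = 0.0804, and 0.0128 with the block). Cdh5, the cadherin of endothelial junctions, was at 7.12, 7.27, 6.15 and 7.22 in the same order, so only TK late was low, and the stages overlapped for it and for Pecam1 (-0.38).

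Among vessel-regulating ligands and receptors, Angpt2, the destabilising angiopoietin, stood at 9.26 and 9.60 early and 8.88 and 8.78 late (-0.60, SE 0.17, limma adjusted p = 0.129, and 0.0363 with the block), a gap between stages in both hosts. Its receptor Tek differed by -0.23, with overlapping stages. The stabilising ligand Angpt1 was not well above background on the late arrays, and no difference is given. Vegfa stood at 9.32 and 8.60 early and 9.15 and 8.81 late (0.02, SE 0.24). Pdgfrb itself, the gene whose promoter drives the kinase, stood at 7.03 and 6.97 early and at 6.67 (TK) and 7.45 (control) late (0.06, SE 0.24, limma adjusted p = 0.916). Of 13 pericyte and mural genes 4 were kept as lower and 0 as higher (median -0.17). The pericyte proteoglycan Cspg4 was not well above background late and was at least 1.02-fold lower there, and Rgs5, a regulator of G protein signalling, differed by -0.03.

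Fibroblast and interstitial matrix genes had opposite differences in the hosts. Of 26 tested 4 were kept as lower and 0 as higher (median -0.23), but the median was -0.82 in ablated and 0.28 in control tumours. The list mean was 9.05 on TK early, 8.89 on control early, 8.10 on TK late and 9.22 on control late, and without TK late its median was 0.21. Thbs2, an inhibitor of vessel growth, stood at 11.67 and 11.20 early and at 8.95 (TK) and 10.87 (control) late (-1.53, SE 0.51, limma adjusted p = 0.168, and 0.00305 with the block). Col1a1, the main chain of type I collagen, was at 9.63, 9.45, 8.22 and 11.41 in the same order, with overlapping stages.

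Matrix-remodelling enzymes differed in both directions. Mmp3, stromelysin 1, stood at 11.83 (TK) and 10.37 (control) early and 10.05 and 9.996 late (-1.07, limma adjusted p = 0.194, and 0.00461 with the block). The aggrecanase Adamts4 stood at 9.56 and 9.14 early and 8.49 and 8.40 late (-0.91, limma adjusted p = 0.0626, and 0.00228 with the block). Mmp14, a membrane-bound collagenase, stood at 11.75 and 11.51 early and 12.35 and 12.34 late (0.71, limma adjusted p = 0.0804, and 0.0118 with the block). In the list 5 of 26 were kept as higher and 4 as lower. Of 13 basement membrane genes 2, Agrn (0.27) and Lamc1 (0.31), were kept as higher and 0 as lower.

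Epithelial genes had no common direction. Of 16 tested 4 were kept as higher, a share of 25% beside 23.2% of all genes, and 0 as lower. The list median was 0.08 (0.22 in ablated and -0.11 in control tumours), but -0.03 with 75th percentile scaling and -0.11 without TK late. The 4 kept as higher were Krt18 (0.39), Krt7 (0.54), the splicing regulator Esrp1 (0.37) and the mucin Muc1 (0.46), none of which passed limma. Cdh1 differed by 0.21 with overlapping stages. Genes of epithelial-mesenchymal transition (EMT) split, with 6 of 18 kept as higher and 2 as lower. Zeb2, a repressor of E-cadherin, rose from 8.26 and 7.87 to 9.57 and 9.27 (1.36, SE 0.19, limma adjusted p = 0.0297). Inhba, the activin A subunit, stood at 9.21 and 8.68 early and 10.06 and 9.93 late (1.05, limma adjusted p = 0.0546, and 0.000632 with the block). Twist2 differed by -0.78 and the integrin subunit Itga5 by -0.75.

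Proliferation and metabolism genes had no common direction. Of 29 cell cycle genes 6 were kept as higher and 5 as lower (median -0.01), Top2a, which untangles DNA, differing by 0.40 and E2f1, an activator of S-phase genes, by -0.57. Of 33 hypoxia and glycolysis genes 5 were kept as higher and 6 as lower. Ldha, which makes lactate, stood at 12.92 on both early arrays and at 12.16 and 12.39 late (-0.64, limma adjusted p = 0.0927, and 0.0213 with the block), and the glucose transporter Slc2a1 differed by -0.61. Egln3, an oxygen-sensing prolyl hydroxylase, stood at 10.02 and 10.04 early and 10.83 and 10.39 late (0.58, limma adjusted p = 0.154, and 0.0405 with the block). Of 28 respiratory chain genes 11 were kept as lower and 6 as higher. The complex III gene Uqcrb had a difference of 0.90 (limma adjusted p = 0.0512, and 0.00201 with the block) and the complex IV gene Cox6c one of -0.78 (limma adjusted p = 0.0653, and 0.00652 with the block).

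Stress genes gave a similar mixture. Of 23 unfolded protein and stress genes 8 were kept as lower and 6 as higher. Herpud1, of endoplasmic reticulum-associated degradation, stood at 11.13 and 10.74 early and 10.24 and 10.10 late (-0.77, limma adjusted p = 0.0832, and 0.00728 with the block). The transcription factor Xbp1 differed by 0.57. Of 15 p53 response and cell death genes 5 were kept as lower and 2 as higher (median -0.19), among them the p53 target Fas (-0.62) and the growth-arrest gene Gadd45a (0.66). The other detected probe differed by -0.52 for Fas and by 0.05 for Gadd45a. Ribosomal protein genes were kept as higher in 5 of 21 and as lower in 5 of 21, and their median relative to all genes was 0.03 but -0.27 with 75th percentile scaling.

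**Figure D4:**
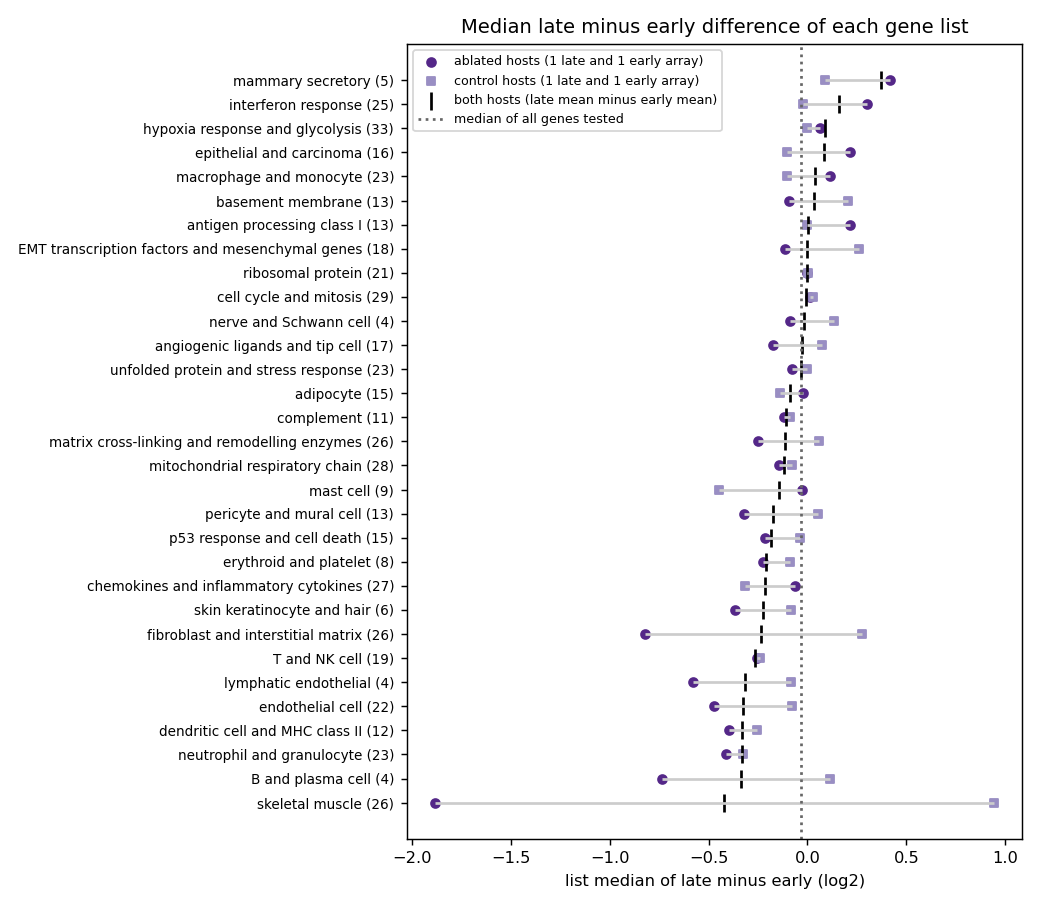
Median late minus early difference (log2) of the 31 gene lists, with the number of genes tested in brackets. Circles are ablated hosts, squares control hosts (1 late and 1 early array each), black bars both hosts, and the dotted line the median of all genes tested (-0.03). The T and NK cell, neutrophil and MHC class II lists lie below the line in both hosts, while the fibroblast list (-0.82 and 0.28) and the skeletal muscle list (-1.89 and 0.95) have opposite signs.

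Markers of neighbouring tissue differed between arrays more than between stages. The skeletal muscle list had means of 8.99 on TK early, 6.64 on control early, 7.08 on TK late and 7.80 on control late, and of 26 genes tested 3 were kept as lower (median -0.42). Acta1, skeletal muscle actin, was at 12.37, 6.14, 8.73 and 10.75 in that order. Its muscle neighbours Ckm and Myh4, on those arrays in that order, were at 8.49, 5.75, 6.19 and 7.04 and at 6.51, 5.98, 6.01 and 6.21. Without TK early the list median was 0.57 and without control early -1.5996. The part of admixed tissue in the stage differences was not tested.

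The adipocyte list had means of 7.51 to 7.67 on the 4 arrays and that of mast cells of 6.42 to 7.61. Of 15 adipocyte genes 2 were kept as higher and 5 as lower, and of 9 mast cell genes 0 and 1. In the same order the counts were 1 and 5 of 11 complement genes, 0 and 2 of 8 erythroid and platelet genes, and 1 and 3 of 6 skin genes. They were 0 and 2 of 4 lymphatic endothelial genes, 0 and 2 of 4 nerve genes, 0 and 1 of 4 B and plasma cell genes, and 3 and 0 of 5 mammary secretory genes. Of the skin genes Krt10, a keratin of differentiating epidermis, stood at 8.76 and 8.57 early and 7.998 and 7.81 late (-0.76, limma adjusted p = 0.0702, and 0.00728 with the block). Of the milk-related genes Trf, transferrin, stood at 9.85 and 10.95 early and 11.01 and 11.42 late (0.82, limma adjusted p = 0.227, and 0.00774 with the block). Hba-a1, the alpha globin of red cells, was at 11.88, 10.96, 10.27 and 10.88, high on TK early.

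Gene length went with the direction of the difference. Genes kept as higher had a median genomic length of 25.9 kb, those kept as lower 18.4 kb and those not kept 18.7 kb. Among the genes that passed limma it was 41.5 kb for the 41 higher and 14.8 kb for the 19 lower. In 4 groups of 2408 genes from short to long, 16.99, 21.3, 24.7 and 29.7% were kept as higher and 33.1, 27.5, 29.3 and 25.0% as lower. The Spearman correlation of length and difference over 9632 genes was 0.115, a description across genes of the same 4 arrays.

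**Figure D5:**
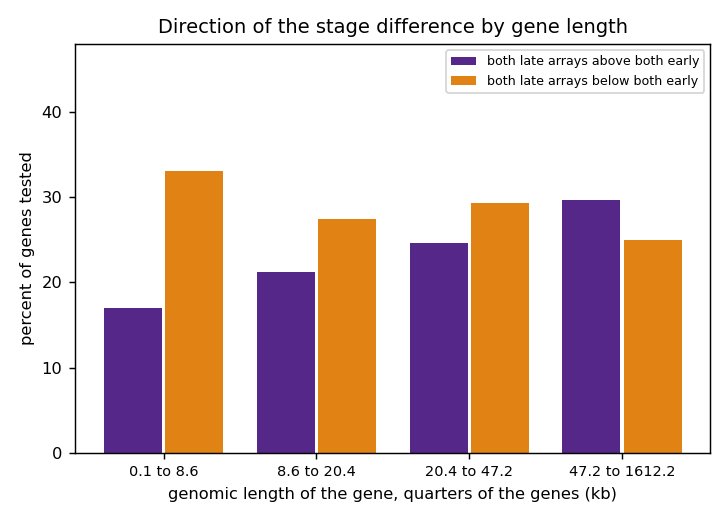
Percent of genes tested whose late arrays both lay above (purple) or both below (orange) the early arrays, in 4 groups of 2408 genes by genomic length (kb). The share higher climbs from 16.99% in the shortest to 29.7% in the longest genes, and the share lower is largest, at 33.1%, in the shortest.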

How the data were processed

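Biotin-labelled cRNA was made from total RNA for Illumina arrays, per the labels' protocols. The submitters' processing notes name GenomeStudio, with no version. The deposited table gives, per the file headers, a probe signal (linear intensity, neither normalised nor background-corrected) and a detection p-value for each array. In the deposited table the detection p-value column of the late control repeats its signal for all 25697 probes, and it was not used. The authors' processed values are a linear function of the deposited signal intensity on each array (largest residual 0.109), and served as an alternative. The deposited table of the 9 other arrays has 6 columns, for 3 arrays, that match no sample and were not used.

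The 4 arrays were normalised together with limma 3.58.1 in R 4.3.3 (normexp, offset 50, then quantile). The labels give no slide or scan date. Of 25697 probes 23978 had 1 gene symbol, none several and 1719 none; 23962 matched RefSeq by gene ID. The filter kept 13681 probes whose detection p was under 0.05 on 1 or more of the 3 valid arrays, with 1 probe, the brightest on average, per gene. Stage was fitted with lmFit and eBayes, without ablation status, with Benjamini-Hochberg adjustment over 9637 genes. A probe not well above background on the arrays of a stage is named as such, with a bound in place of its difference where one could be formed. The 9 arrays (neqc, offset 16) gave the other spread. The fit was tested on simulated data.

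Named genes were, in each direction, the 12 largest differences among kept genes brighter than the median whose other probes agreed in sign, up to 4 kept members of each list, 9 vessel genes in any case (Vegfa, Cdh5, Pecam1, Rgs5, Cspg4, Tek, Angpt1, Angpt2 and Pdgfrb), and genes that passed limma (all if at most 20, otherwise the 10 with the smallest p). Other list members were named after their values were seen. Members and lists were chosen with earlier results of these data known. Alternatives changed the background correction, scaling, value source, filter, probes per gene, ablation block, array weights and each array left out.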

Additional observations from a re-analysis of the deposited data

Results flagged for a closer look

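The skeletal muscle list had opposite differences in the hosts, with a median of -1.89 in ablated and 0.95 in control tumours, each from 1 late and 1 early array. Pdgfrb was lower late in ablated tumours (-0.36) and higher late in control tumours (0.48). With 1 array per stage and host, neither difference between the hosts was tested.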

How the results depend on the processing

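All 60 genes kept their sign under each alternative in which they were refitted and tested, but the count that passed depended on the setting. In all 60 both late arrays lay on the same side of both early arrays. Leaving out 1 array, the block and array weights therefore could not change a sign, and only the other alternatives could. It was 230 (58 higher and 172 lower) with 75th percentile scaling, 35 (27 and 8) with a normexp offset of 16, 119 (77 and 42) with detection on all 3 valid arrays, 35 (27 and 8) without a filter, and 62 higher with the mean of all probes (89 in all). It was 757 (340 and 417) with ablation status as a block, 1 (1 higher and 0 lower) with the spread of the 9 arrays, and 0 (0 and 0) in limma on the authors' processed values, where no adjusted p was under 0.0694 and 2010 genes had an unadjusted p under 0.05. Leaving out 1 array gave 0 to 134 genes (0 to 47 higher, 0 to 87 lower), with 0 without TK late and without control late, 57 without TK early and 134 without control early; such a fit takes the lone array of a stage to vary like the other pair. The cause was not tested. Without a filter 8165 genes were kept (3966 higher, 4199 lower), since 16593 were then tested, and with 1 array left out 6977 to 7443 (3081 to 3470 higher, 3896 to 4078 lower), since fewer arrays must then agree. List medians below 0 numbered 18 to 29 over the alternatives, and the B and plasma cell list had no gene detected on all 3 valid arrays. Relative to all genes, the hypoxia median was 0.13 and -0.03 with 75th percentile scaling. No paired analysis was possible because the 4 arrays carry no replicate number; the block given above pairs arrays only by host type. The precision is limited by 4 arrays; of the kept genes, 231 were not well above background early and 737 late.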
